A study of Mus musculus with 1824 samples.

Results

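DNA methylation in mammals is written and kept by a small group of proteins, and their transcripts were followed here in single cells of the mouse embryo at gastrulation and early organogenesis. The 5 genes were Dnmt1, Uhrf1, Dnmt3a, Dnmt3b and Dnmt3l, out of 55487 genes counted, and each was found by matching its Ensembl identifier to its symbol. Transcriptomes of 1824 single cells had been collected on 19 plates from chimaeras, embryos in which Tet-TKO cells (embryonic stem cells lacking all Tet enzymes and carrying an H2B-tdTomato label) develop beside wild-type host cells. The methods describe 1 labelled stem cell line, injected into C57BL/6J blastocysts that were carried by CD1 recipients, and a sort on KDR and CD41 of live singlets. The labels give the strain as CD1 and the tissue as E7.5 or E8.5 embryo, which are embryonic days 7.5 and 8.5. At E7.5 there were 11 plates (4 of numbered embryos 1, 2, 4 and 5, chimera plate 3, and lane plates 1 to 6, named for the lane in their titles), and at E8.5 there were 8. The labels of single cells give neither genotype nor sort gate, and no comparison of genotypes was made. Injected stem cells rarely enter the trophoblast, so the genotype makeup of a class and the class itself cannot be told apart.

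As background, DNMT1 copies methylation onto the new strand after replication, and UHRF1 brings it to hemimethylated sites. DNMT3A and DNMT3B methylate unmethylated DNA, and DNMT3L, which has no catalytic activity, assists them. The implanting embryo gains methylation in the epiblast, the source of all germ layers, while the extraembryonic ectoderm of the trophoblast keeps a lower level.

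Levels are given in CPM, the read count of a gene scaled to a common total of reads in every cell, as the mean over cells of a plate, in the 1649 cells with at least 100000 reads. The median depth of these cells lay between 224956 and 1699480 reads on the E7.5 plates, and between 420157 and 1141640 on those of E8.5. Cells with haemoglobin, Gata1, Itga2b, Spi1 or Cdh5 reads past a limit were set aside as blood or endothelial (250 of E7.5, 440 of E8.5). The others were classed by 1 marker each, at 50 CPM or more (1000 for Ttr). Elf5 cells had Pou5f1 and Ttr under these limits, Ttr cells had Elf5 under it, Hand1 and Pou5f1 cells had each other's marker, Elf5 and Ttr under them, and Sox2 cells had all other markers under them. Hand1 and Sox2 were thus not limited in Elf5 cells, which held 71.03 and 34.3 CPM of them. At E7.5, 36.5% of cells were Pou5f1 cells (epiblast), with 6 to 65 of them on each of 9 plates. The other classes held 57 Elf5 cells (trophoblast), 17 Ttr cells (endoderm), 95 Hand1 cells (mesoderm) and 17 Sox2 cells (neural). At E8.5 there were 68 Hand1, 20 Ttr and 12 Sox2 cells, with 4 Pou5f1 cells and 1 Elf5 cell that were too few for a plate value.

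The class names were checked against further markers among the classes of E7.5. All 6 other trophoblast genes of the list (such as Esrrb and Tfap2c) were highest in Elf5 cells, and all 6 other mesoderm genes (such as Foxf1) in Hand1 cells; Cdx2, one of the former, was higher still in Hand1 and Sox2 cells of E8.5. Of the other endoderm genes, 7 of 8 peaked in Ttr cells, and of the other neural genes 4 of 5 (all 5 at E8.5) in Sox2 cells. Apoa1 (5014 CPM) and Afp (2313 CPM) led the endoderm genes in E7.5 Ttr cells, where Sox17 was 111.99 CPM. Foxa2 was higher in Sox2 cells (48.2 CPM) than in Ttr cells (36.6 CPM). Rhox5, which the paper counts among extraembryonic markers, was 649.7 CPM in Ttr cells. Embryonic and extraembryonic endoderm were not told apart, so levels in Ttr cells are not read as those of a germ layer. Of the other epiblast genes 4 of 5 were highest in Pou5f1 cells, but so were all 6 genes of the primitive streak and nascent mesoderm (such as T and Mixl1), so this class ran from epiblast to streak. Hand1 cells at E7.5 also held 461.7 CPM of summed endothelial genes against 78.8 CPM in Pou5f1 cells. Kdr, also used for the sort, stood at 382.2 CPM of this sum, Etv2 at 39.8, Tek at 31.3 and Pecam1 at 8.31 CPM. Cdh5, which the class rule limits, had 0.18 CPM in Hand1 and 0.22 CPM in Pou5f1 cells. The part of these genes in the results was not tested. In embryos 4 and 5 the rule set aside 28 and 15 cells, of which 18 and 9 had Elf5 at the class limit and no haemoglobin at its limit. In reads summed over a class, a different mix of cells within the class and a different level per cell cannot be told apart.

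The de novo enzymes set the classes apart, and the maintenance genes mostly did not, as the E7.5 levels show. Dnmt3b was highest in Pou5f1 cells, at 1489 ± 580 CPM (SD, n = 9 plates), followed by Elf5 cells (1074 ± 90.2, n = 2) and Ttr cells (697.1, 1 plate). In Hand1 cells it was 208.2 ± 69.7 CPM (n = 8) and in Sox2 cells 187.7 CPM (1 plate). Dnmt3a was likewise highest in Pou5f1 cells (210 ± 60.4 CPM), but lowest in Elf5 cells (22.4 ± 3.70). Dnmt3l reached 152.3 ± 7.74 CPM in Elf5 cells, and its mean over plates was 6.51 CPM or less in the other classes.

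**Figure D1:**
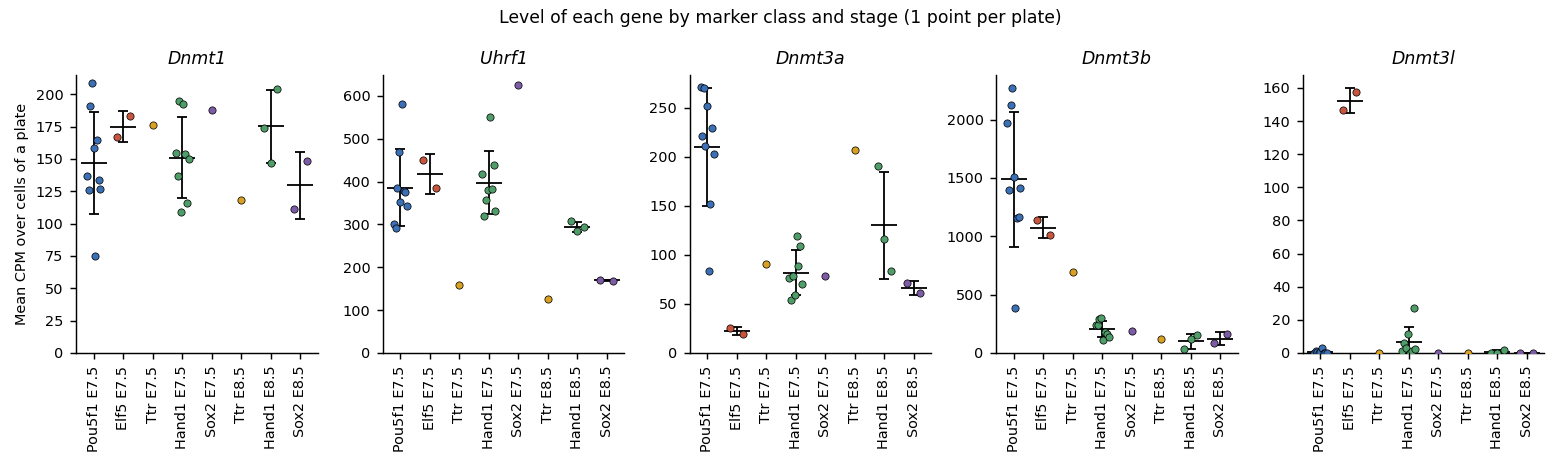
Mean CPM over the cells of a plate (y axis, linear, a separate scale for each gene) by marker class and stage (x axis). Points are plates with at least 5 cells of the class; bars are the mean ± 1 SD over plates, drawn no lower than 0, where there were 2 or more. Dnmt3l stands at 146.8 and 157.8 CPM on the plates of Elf5 cells and at most at 26.98 CPM elsewhere.

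Dnmt3b, the main de novo enzyme of the early embryo, was compared first between Hand1 and Pou5f1 cells of the same embryos. In embryo 1 the summed reads gave 1413 CPM in Pou5f1 cells and 264.8 CPM in Hand1 cells. In embryo 2 the values were 2158 and 303.9 CPM, and in embryo 5 they were 1474 and 310 CPM. Hand1 cells were lower in 3 of 3 embryos and the groups did not overlap. The log2 fold change was -2.54 ± 0.11 (SE), with an adjusted p of 0.000473 by the edgeR quasi-likelihood test with embryo as a block and Benjamini-Hochberg adjustment. At the threshold of the study's methods (adjusted p under 0.01 and an absolute log2 fold change of at least 1), 0.0854% of 18725 genes were called lower in Hand1 cells and 0.267% higher. The median gene stood at -0.24 in this contrast. Without embryo 1 the change was -2.55 with an adjusted p of 0.0165, and 0 genes of all were then called, although 11.4% had an unadjusted p under 0.05.

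Over the plates, Dnmt3b ran from 389.2 to 2274 CPM in Pou5f1 cells and from 114.1 to 297.8 CPM in Hand1 cells. Every plate of Hand1 cells was below every plate of Pou5f1 cells, which held for 0.991% of 9288 genes. The lowest Pou5f1 plate was lane plate 3, with 6 cells, followed by lane plate 4 at 1160 CPM. These 6 cells had 184.9 CPM of Pou5f1 and 971.7 CPM of Mixl1, a gene of the streak, while the other 8 plates had 384.7 to 766.4 CPM of Pou5f1 and 239.7 to 592.2 CPM of Mixl1.

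Among single Pou5f1 cells Dnmt3b followed Pou5f1 itself. On the 5 plates with at least 20 such cells (43 to 65 each), Spearman's rho of Dnmt3b with Pou5f1 had a median of 0.64 (0.42 to 0.77). With the streak genes T and Mixl1 the medians were -0.54 (-0.70 to -0.23) and -0.60 (-0.73 to -0.02). Cells of a plate share their library preparation and class rule, and these are descriptions. With total reads of the cell the median was -0.03. In embryo 2 the 21 Pou5f1 cells with the least Pou5f1 had a median of 535.6 CPM of Dnmt3b and the 21 with the most had 3352 CPM. In embryo 1 the medians of such groups, again of 21 cells each, were 356.98 and 2533 CPM. The medians were 179.5 and 1123 CPM on lane plate 5 (14 cells each) and 366.4 and 1063 CPM on lane plate 6 (20 cells each). Dnmt3a followed the same order on all 5 plates, from 66.4 to 382.5 CPM in embryo 2 and from 123.5 to 161.8 CPM on lane plate 6. Uhrf1 did not, with 464.4 and 330.1 CPM in embryo 2 but 238.8 and 297.3 CPM in embryo 1. The streak genes did not keep to a single order. Cells with the most Pou5f1 had lower medians of T and Mixl1 in embryos 1 and 2 and on chimera plate 3. On lane plates 5 and 6 they had higher ones (T at 385.8 against 32.6 CPM and 317.7 against 138.5 CPM).

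**Figure D2:**
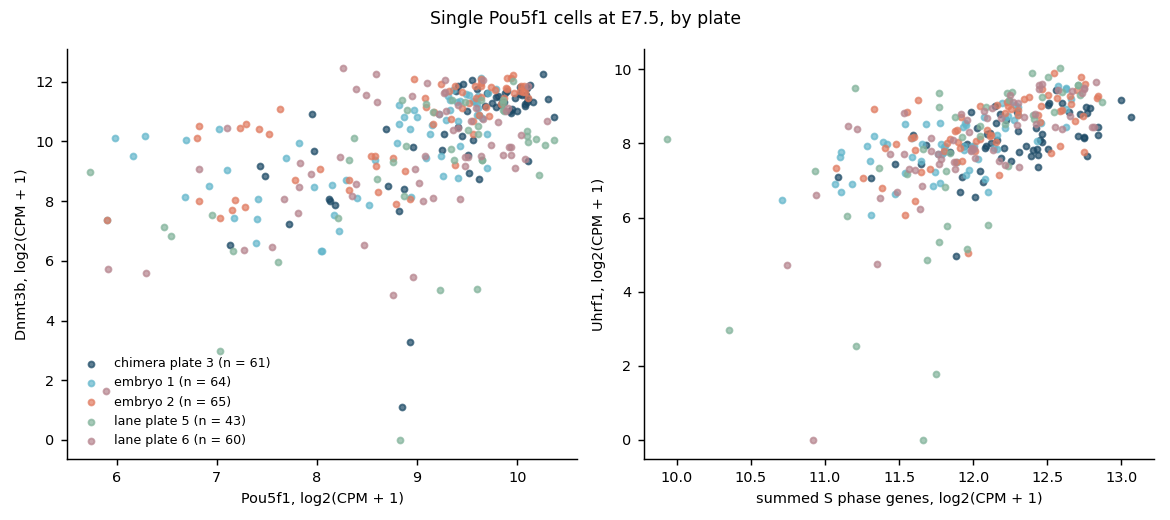
Single Pou5f1 cells of the 5 E7.5 plates with at least 20 of them, coloured by plate. Left, Dnmt3b against Pou5f1; right, Uhrf1 against the summed S phase genes; all axes are log2(CPM + 1). Both clouds slope upwards on every plate (lowest rho 0.42 on the left and 0.55 on the right).

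Between Elf5 and Pou5f1 cells Dnmt3b differed less. It was 1161 against 1922 CPM in embryo 4 and 976.4 against 1474 CPM in embryo 5. Elf5 cells were lower in both embryos, at a log2 fold change of -0.70 ± 0.13, but this did not pass the threshold (edgeR, adjusted p = 0.0215).

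Dnmt3a, the second catalytic de novo enzyme, was far lower in Elf5 cells. Embryo 4 had 200.6 CPM in Pou5f1 cells and 21.4 CPM in Elf5 cells, and embryo 5 had 252.3 and 21.4 CPM. The log2 fold change was -3.38 ± 0.20 (edgeR, adjusted p = 0.000218, lower in 2 of 2 embryos), where 1.69% of 18725 genes were called lower and 0.486% higher. Over the 16 alternatives the change ran from -3.82 to -3.17. Leaving out the haemoglobin genes returned the same values, and leaving out embryo 4 or 5 left Elf5 cells of 1 embryo, where only the size is read. The call held in the other alternatives. A Dnmt3a read was found in 40 of 57 Elf5 cells (70.2%, exact 95% interval 56.6 to 81.6) and in 97.4% of Pou5f1 cells (95.2 to 98.8), of which 9 had none. At 100000 reads in every cell the expected shares were 56.01% and 95.4%, in the same order.

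Dnmt3a was also lower in Hand1 cells. Embryo 1 had 225.6 CPM in Pou5f1 and 54.9 CPM in Hand1 cells, embryo 2 had 280 and 74.8 CPM, and embryo 5 had 252.3 and 64.4 CPM. The log2 fold change was -1.98 ± 0.15 (edgeR, adjusted p = 0.00216, lower in 3 of 3 embryos). The call was lost on leaving out embryo 1 (-1.91, adjusted p = 0.0363), embryo 2 (-2.01, 0.0244) or embryo 5 (-2.02, 0.0122), with the size between -2.02 and -1.91. With all E7.5 plates as blocks it was -1.39 (adjusted p = 0.0155). Within plates, Dnmt3a and Dnmt3b went together over Pou5f1 cells (median rho 0.69, 0.48 to 0.77, 5 plates). They did not over Elf5 cells (-0.20 and -0.06, 2 plates) or Hand1 cells (-0.33 on lane plate 3 and 0.05 on E8.5 plate 8). Dnmt3a was low in Elf5 cells, with a median of 9.90 CPM and a read in 40 of 57 cells, which limits a rank relation there.

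Dnmt3l, the catalytically inactive partner, marked the Elf5 cells. Its summed reads numbered 2482 (142.4 CPM) in Elf5 cells of embryo 4 and 1911 (154.6 CPM) in those of embryo 5. In Pou5f1 cells of the same embryos there were 1 and 5 reads (0.10 and 0.57 CPM). The ratio was 1394 in embryo 4 (95% counting interval 250 to 55079) and 273.1 in embryo 5 (116.8 to 842.2). The fitted log2 fold change of 7.91 ± 0.83 passed the threshold (edgeR, adjusted p = 0.00242), although its size depends on the few reads in Pou5f1 cells. With the marker limits halved the adjusted p was 0.0313, with them doubled 0.0300, with blood marker cells kept 0.0433, with all E7.5 plates 0.0135 and without embryo 4 it was 0.0125, so the call was lost in these fits while the change stayed at 6.73 or more.

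A Dnmt3l read was present in 55 of 57 Elf5 cells (96.5%, 87.9 to 99.6) and in 17 Pou5f1 cells (4.87%, 2.86 to 7.68). At 100000 reads a cell, 94.1% and 2.73% would be expected. At E7.5, 1 of 17 Ttr cells had a read (5.88%, 0.15 to 28.7), at 233.3 CPM, which put the mean over these cells at 13.7 CPM; the 10 Ttr cells of embryo 4 had none. Of 17 Sox2 cells at E7.5 none had a read, so that a share up to 19.5% remains possible. At E8.5 none of 20 Ttr and 12 Sox2 cells had one, with upper limits of 16.8% and 26.5%. These intervals and limits cover counting error only. The 27 cells of embryos 4 and 5 that were set aside although they had Elf5 had like levels, with 177.2 CPM of Dnmt3l, 12.8 CPM of Dnmt3a and 1070 CPM of Dnmt3b on average. Dnmt3l overlaps Aire on the opposite strand and the counting was not stated to use strand. Aire was counted at 16.9 CPM in Elf5 cells and at 0.10 CPM in Pou5f1 cells.

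**Figure D3:**
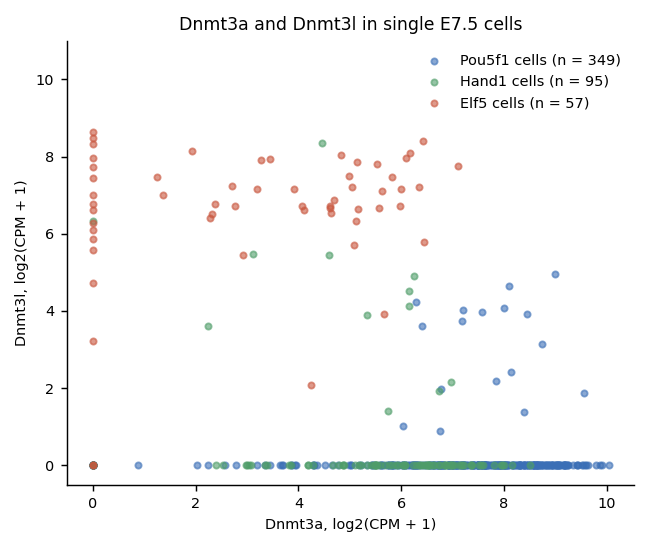
Dnmt3l (y axis) against Dnmt3a (x axis), both log2(CPM + 1), in single E7.5 cells; each point is a cell of the class named by its colour. Elf5 cells lie high on Dnmt3l (median 115.8 CPM) and low on Dnmt3a (median 9.90 CPM), while most Pou5f1 cells have no Dnmt3l read and a median of 179.2 CPM of Dnmt3a.

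In Hand1 cells Dnmt3l came from few cells. It was read in 12 of 95 at E7.5 (12.6%, 6.70 to 21.03), and the plate mean of 26.98 CPM on lane plate 4 came from 1 of 12 cells, at 323.8 CPM. The sums of embryos 1, 2 and 5 held 45, 37 and 52 reads (5.74, 4.38 and 13.2 CPM), and the change against Pou5f1 cells, 3.16 ± 0.59 on the log2 scale, did not pass the threshold (edgeR, adjusted p = 0.0535). DESeq2 gave 3.31 with an adjusted p of 1.4e-05, while edgeR gave 0.36 (adjusted p = 0.929) with cells assigned by marker lists and 0.83 (0.871) with the marker limits halved. Over all alternatives the change ran from 0.36 to 3.72, so it depended on how the classes were drawn. Elf5 reads were present in 3 of these 12 cells and in 0 of the 83 Hand1 cells without Dnmt3l. The summed trophoblast markers had a median of 26.3 CPM in the 12 cells and 26.4 CPM in the 83, but a highest value of 2886 against 634.3 CPM. The summed mesoderm markers had a median of 610.1 CPM in the 12 cells and 1521 CPM in the 83, and the part of these markers in the result was not tested.

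Taken per kilobase of annotated exon, the mix of de novo genes differed between classes. Exon length was 16642 bases for Dnmt3a, 5106 for Dnmt3b and 2988 for Dnmt3l, over all annotated isoforms. Such a length can exceed that of the transcripts expressed, which would lower the level per kb. Isoforms were not resolved, so the shares, above all the low ones of Dnmt3a, depend on this choice of length. In Pou5f1 cells the level of Dnmt3b was 291.6 CPM per kb, of Dnmt3a 12.6 and of Dnmt3l 0.23, so Dnmt3b made up 95.8% of their sum. In Elf5 cells the levels were 210, 1.35 and 50.98 CPM per kb, and Dnmt3l made up 19.4%. In Hand1 cells they were 40.8, 4.92 and 2.18, and Dnmt3a made up 10.3%. At E8.5 the Dnmt3a share was 28.2% in Hand1 cells and 34.6% in Ttr cells.

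**Figure D4:**
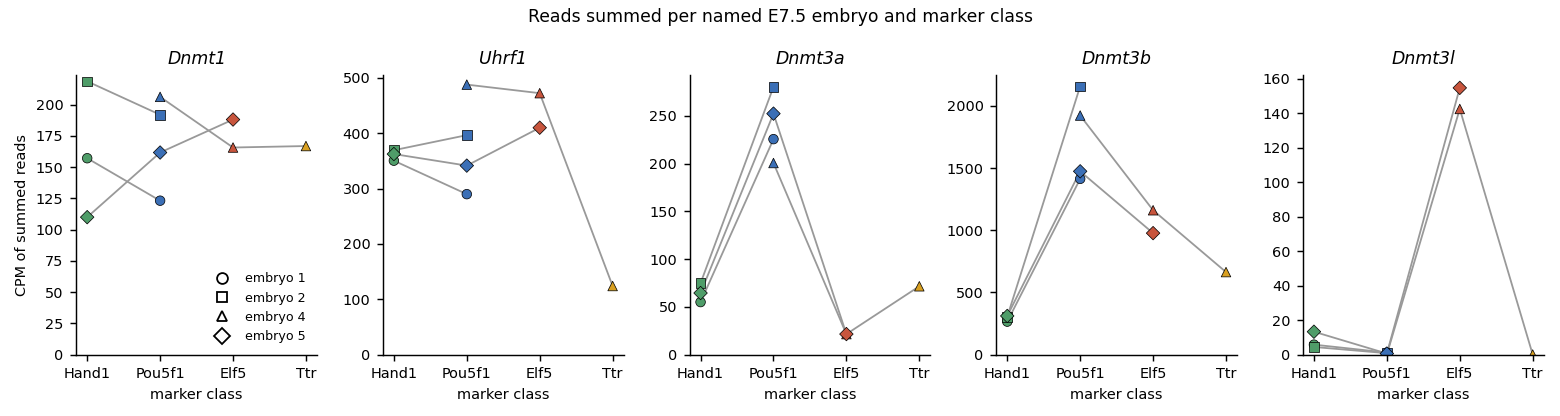
CPM of reads summed per named E7.5 embryo and marker class (y axis, linear, a separate scale for each gene) in Hand1, Pou5f1, Elf5 and Ttr cells (x axis); point shape gives the embryo and lines join classes of 1 embryo. Dnmt3a stands at 200.6 to 280 CPM in Pou5f1 cells, at 54.9 to 74.8 CPM in Hand1 cells and at 21.4 CPM in Elf5 cells of both embryos, while Dnmt1 lines cross.

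The maintenance genes differed little among Pou5f1, Elf5 and Hand1 cells. Uhrf1 was 386.03 ± 89.6 CPM in Pou5f1 cells (n = 9 plates), 417.9 ± 45.9 in Elf5 cells (n = 2) and 397.3 ± 73.6 in Hand1 cells (n = 8). Dnmt1 was 146.7 ± 39.5, 175.03 ± 11.8 and 150.9 ± 31.4 CPM in these classes. In the embryos, the log2 fold change of Hand1 over Pou5f1 cells was 0.02 ± 0.11 for Uhrf1 and -0.10 ± 0.22 for Dnmt1 (edgeR, adjusted p = 0.973 and 0.889). For Elf5 over Pou5f1 cells it was 0.15 ± 0.13 and 0.15 ± 0.25 (adjusted p = 0.611 and 0.830). None of these passed, and their signs turned under other settings. Dnmt1 in Hand1 cells was higher than in Pou5f1 cells in embryos 1 and 2 (157.2 against 123.2 CPM and 218.8 against 192.02 CPM) and lower in embryo 5 (110 against 161.8 CPM).

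Ttr cells had less Uhrf1 than Pou5f1 cells. Embryo 4, the only embryo with at least 5 Ttr cells, had 123.8 CPM of Uhrf1 in them and 487.8 CPM in Pou5f1 cells, a ratio of 0.25 (95% counting interval 0.24 to 0.27). The other ratios in this embryo were 0.81 for Dnmt1, 0.36 for Dnmt3a and 0.35 for Dnmt3b. A test needed a second embryo, which an alternative provided by keeping cells with blood markers (11 and 6 Ttr cells in embryos 4 and 5). Uhrf1 was then 148.3 against 520.6 CPM in embryo 4 and 76.2 against 341.4 CPM in embryo 5, a log2 fold change of -1.86 ± 0.19 (edgeR, adjusted p = 0.00106). Dnmt3a (-1.5002, adjusted p = 0.00337) and Dnmt3b (-1.64, 0.000966) were also called lower in that fit, in which 2.73% of 16056 genes were, and Dnmt1 was not (-0.19, 0.653). With cells assigned by whole marker lists (11 and 10 Ttr cells) Uhrf1 was at -1.30 (adjusted p = 0.00359), Dnmt3a at -2.04 (0.000498) and Dnmt3b at -1.62 (0.000262), beside 4.27% of 17318 genes called lower.

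The order of levels could be read only in part. Neighbours were set against the larger SD of the pair, and a class of 1 plate has none. For Elf5 cells and for Sox2 cells of E8.5 the SD came from 2 plates. Uhrf1 ran from 624.6 CPM in E7.5 Sox2 cells (1 plate) down to 158.2 and 124.9 CPM in Ttr cells of E7.5 and E8.5 (1 plate each), and Elf5, Hand1 and Pou5f1 cells of E7.5 followed each other within their SD. Gaps beyond it were those from E7.5 Sox2 to Elf5 cells and from E7.5 Pou5f1 to E8.5 Hand1 cells. So were those from E8.5 Hand1 to E8.5 Sox2 cells and from these to E7.5 Ttr cells. Dnmt1 ran from 187.99 CPM in E7.5 Sox2 cells to 118.6 CPM in E8.5 Ttr cells, and each of the neighbours whose spread was known lay within it. For Dnmt3b the gap from Elf5 to Ttr cells and from Ttr to Hand1 cells at E7.5 was beyond the SD, while Pou5f1 and Elf5 cells were within it. The gap from Sox2 cells of E7.5 to those of E8.5 was also beyond it. For Dnmt3a, Sox2 cells at E8.5 (66.2 CPM) and Elf5 cells were apart by more than the SD. This also held from Ttr to Hand1 cells at E8.5 and from Sox2 cells of E7.5 to those of E8.5. For Dnmt3l, Elf5 cells were apart from all others, and the rest were not apart from their neighbours.

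Uhrf1 followed the S phase, when maintenance methylation takes place. Over single Pou5f1 cells, rho of Uhrf1 with the summed level of 16 S phase genes (such as Mcm2 to Mcm7 and Pcna) had a median of 0.67 (0.55 to 0.72, 5 plates). It was 0.51 and 0.56 over Hand1 cells (2 plates) and 0.46 and 0.54 over Elf5 cells (2 plates). For Dnmt1 over Pou5f1 cells the median was 0.31 (0.14 to 0.33), for Dnmt3b 0.37 and for Dnmt3a 0.45. Genes of a cell share its depth and library, and rho of Uhrf1 with total reads had a median of -0.05 over Pou5f1 cells but was 0.33 on both plates of Elf5 cells, and -0.37 and -0.20 over Hand1 cells. By edgeR and by DESeq2, 0 of the 16 S phase genes were called in either contrast (5 in the Hand1 and 6 in the Elf5 contrast had an unadjusted p under 0.05 in edgeR, beside 14.7% and 20.1% of all genes): their median log2 fold change was -0.12 in Hand1 cells and 0.15 in Elf5 cells, beside -0.24 and -0.08 over all genes.

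The promoters of the maintenance genes are shown because both hold an 8-base motif of the kind bound by E2F factors, TTTCGCGC or its reverse complement GCGCGAAA, here in capitals. The windows run from 250 bases before to 50 after an annotated start (RefSeq, GRCm38.p6), and the Dnmt3b window is given for comparison. Of 12 windows of the 5 genes 2 held the motif, beside 0.323% of 32851 windows of all genes, and 3 of 13 S phase genes with a window held it. The motif itself holds CpG sites, of which the 12 windows had a median of 15 against 7 over all windows. The share over all genes was not matched for this. The motif was picked with these sequences in view, and a match is a description, not a site.
Dnmt1, chr9:20952574-20952873, minus strand: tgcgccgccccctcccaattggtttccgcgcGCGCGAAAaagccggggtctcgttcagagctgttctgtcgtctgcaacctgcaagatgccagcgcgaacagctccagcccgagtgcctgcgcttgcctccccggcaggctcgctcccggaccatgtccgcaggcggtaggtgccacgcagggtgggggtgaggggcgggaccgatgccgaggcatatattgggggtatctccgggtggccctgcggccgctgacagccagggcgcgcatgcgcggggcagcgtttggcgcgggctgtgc
Uhrf1, chr17:56304063-56304362, plus strand: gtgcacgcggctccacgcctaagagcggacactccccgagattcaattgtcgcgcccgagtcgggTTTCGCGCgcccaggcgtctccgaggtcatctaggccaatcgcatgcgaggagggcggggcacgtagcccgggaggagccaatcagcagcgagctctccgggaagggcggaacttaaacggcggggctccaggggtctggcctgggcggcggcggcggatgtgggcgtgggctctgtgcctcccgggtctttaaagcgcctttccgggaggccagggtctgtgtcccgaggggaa
Dnmt3b, chr2:153649199-153649498, plus strand: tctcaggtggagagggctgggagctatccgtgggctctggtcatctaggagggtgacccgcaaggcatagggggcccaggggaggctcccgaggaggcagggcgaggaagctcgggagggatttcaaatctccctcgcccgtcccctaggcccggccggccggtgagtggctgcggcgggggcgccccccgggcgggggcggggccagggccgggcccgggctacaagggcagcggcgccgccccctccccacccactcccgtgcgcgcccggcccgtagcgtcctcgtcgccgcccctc
The motif began at base 32 of the Dnmt1 window and at base 66 of the Uhrf1 window. The other 2 Dnmt1 windows and the other Uhrf1 window, and those of Dnmt3a and Dnmt3l, held none.

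Stages were set side by side without a test, since no E8.5 plate names an animal. In Hand1 cells Uhrf1 was 397.3 ± 73.6 CPM at E7.5 (8 plates, 320 to 550.8) and 294.9 ± 11.8 CPM at E8.5 (3 plates, 284.3 to 307.6). All E8.5 plates were thus below all E7.5 plates, as they were for 2.92% of 9288 genes, but with cells assigned by marker lists the E8.5 mean was 352.8 ± 102.3 CPM. Dnmt3b in Hand1 cells was 208.2 ± 69.7 CPM at E7.5 and 100.9 ± 62.8 CPM at E8.5, where plate 4 had 30.98, plate 7 118.9 and plate 8 152.7 CPM, so the stages overlapped. Dnmt3a in Hand1 cells was 81.9 ± 22.7 and 130 ± 54.4 CPM, with E8.5 plates at 190, 116.5 and 83.9 CPM, which again overlapped.

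In Ttr cells, Dnmt3b was 697.1 CPM in embryo 4 at E7.5 and 120 CPM on plate 1 at E8.5 (15 cells). Dnmt3a was 91.1 and 206.8 CPM, so that Dnmt3b was lower and Dnmt3a higher on the E8.5 plate. On plate 1, 76 of 92 cells had been set aside as blood or endothelial, and E8.5 Ttr cells had 163.7 CPM of summed blood genes, whose part in these values was not tested. Sox2 cells had 187.7 CPM of Dnmt3b on lane plate 4 at E7.5 and 122.1 ± 54.8 CPM at E8.5 (2 plates). Uhrf1 in Sox2 cells was 624.6 CPM at E7.5 and 169.1 ± 0.65 CPM at E8.5, on plates of 7 and 5 cells; by marker lists the E8.5 level was 303.6 ± 33.1 CPM.

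By plate, over all cells, Dnmt3b was 835.05 ± 513.7 CPM at E7.5 (11 plates, 171.2 to 1567) and 167.02 ± 125.9 CPM at E8.5 (8 plates, 40.8 to 404.9). Dnmt3l was 16.7 ± 31.05 CPM at E7.5, highest on embryo 4 at 88.7 CPM, and at most 0.66 CPM on an E8.5 plate. Dnmt1 was 153.2 ± 27.5 and 197.1 ± 27.9 CPM, Uhrf1 384.8 ± 56.2 and 316.8 ± 35.3 CPM, and Dnmt3a 146.3 ± 49.8 and 111.2 ± 49.2 CPM. Blood or endothelial cells were 26.2% of the E7.5 and 63.5% of the E8.5 cells. With these cells left out, 9 of the levels by gene and stage stayed within 1 SD over plates and 1 moved by more. Which level moved is not given here. At E8.5, cells without any class marker (4 plates) had 158.3 ± 67.6 CPM of Dnmt3b and 343.3 ± 114.2 CPM of Uhrf1.

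Around the 5 genes, few genes of the wider pathway were called. Of 8 tested maintenance partners, 1 was called, Cdca7l, a relative of CDCA7, the partner of the remodeller HELLS. It was lower in Elf5 than in Pou5f1 cells (log2 fold change -2.53 ± 0.34, edgeR adjusted p = 0.00662), at 21.8 ± 5.37 CPM (2 plates) against 90.6 ± 25.2 CPM (9 plates). An unadjusted p under 0.05 was found for 20.1% of all genes in the Elf5 contrast and for 14.7% in the Hand1 contrast, and for 5 and 3 of the 8 partners. In the Hand1 contrast 0 of the 8 were called by edgeR, and DESeq2 called 1, Cdca7 (-1.01). In the Elf5 contrast DESeq2 called Cdca7l and, higher, Usp7 (1.00). Among 8 genes of chromatin signals for de novo methylation (such as Nsd1 and Setd2), 4 genes of methylation removal (Tet1, Tet2, Tet3 and Tdg) and 3 of methyl donor supply, 0 were called in either contrast by edgeR. At an unadjusted p under 0.05 there were 2, 0 and 1 of them in the Elf5 contrast and 0, 1 and 2 in the Hand1 contrast, beside the shares of all genes above, and DESeq2 called Zfp57 (-1.498) and Mat2b (-1.07) lower in Elf5 cells and none in Hand1 cells. The median log2 fold change was -0.74 for the 3 methyl donor genes in Hand1 cells, beside -0.24 over all genes.

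Germline genes, whose promoters are textbook targets of de novo methylation, were low throughout. Of 11 listed, 8 had a mean of at least 1 CPM in Elf5 cells and 3 in Pou5f1 cells, with sums of 44.3 and 19.8 CPM. The share of all genes with at least 1 CPM was not computed. In Elf5 cells the listed genes were read in a part of the cells only, from 1 of 57 (Dpep3) to 19 of 57 (Sycp1). None of the 10 tested was called in either contrast by edgeR. Their median log2 fold change was 5.56 in Elf5 cells and -2.94 in Hand1 cells, beside -0.08 and -0.24 over all genes. These sizes rest on few reads, with an SE from 1.37 (Sycp3) to 16.9 (Hormad1) in the Elf5 contrast. At an unadjusted p under 0.05 in edgeR there were 3 in the Elf5 and 0 in the Hand1 contrast, beside 20.1% and 14.7% of all genes. DESeq2 called Ddx4 higher in Elf5 cells (4.39). Over all E7.5 cells, however, Ddx4 had a mean of 8.08 CPM in Elf5 and 8.88 CPM in Pou5f1 cells. Tex101, a germ cell surface protein gene, had 10.7 and 9.55 CPM in summed Elf5 cells of embryos 4 and 5 and 0 reads in Pou5f1 cells of both, and was read in 13 of 57 Elf5 cells (edgeR, adjusted p = 0.104). Sycp3, a gene of the meiotic chromosome axis, went the other way, with a mean of 0.45 CPM in Elf5 and 6.36 CPM in Pou5f1 cells (edgeR, adjusted p = 0.199).

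The genes whose levels most resembled each of the 5 were ranked over 27 plate and class values by Pearson's r of log2(CPM + 1), among 9288 genes; plates and classes are shared between these values. Only 2 of the 27 are Elf5 cells, and a gene high in them alone, as Elf5 and Wnt7b are among the classes, passes the filter of a mean of 10 CPM through them, so the likeness to Dnmt3l rests on these 2 values. Dnmt3l was most like AU018091 (0.89), Elf5 (0.88), which defined a class, Bmp8b (0.87), Wnt7b (0.87) and Ube2a (0.83). Dnmt3b was most like Deptor (0.88), Utf1 (0.84), Jarid2 (0.83), Esrp1 (0.83) and Epha1 (0.82). Uhrf1 was most like Nudc-ps1 (0.88), Itpripl1 (0.85), Igf2bp1 (0.83), Brd3 (0.83) and Abraxas1 (0.81), and reads of the pseudogene Nudc-ps1 may belong to its parent. Dnmt3a was most like Nacc1 (0.77), Sema6a (0.76), Maz (0.74), Enpp2 (0.71) and Platr10 (0.70). Dnmt1 had the lowest likeness, with Flii (0.73), Usb1 (0.67), Cpsf7 (0.67), Iars2 (0.65) and Rev3l (0.65). Among the 5 genes themselves, Dnmt3a and Dnmt3l had r = -0.71, and all other pairs were between -0.09 and 0.30. The 2 values of Elf5 cells held the most Dnmt3l and the least Dnmt3a of the 27, and r was not computed without them.

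The genes lie on chromosome 9 (Dnmt1, 20907209 to 20959888, minus strand), 17 (Uhrf1, 56303321 to 56323486), 12 (Dnmt3a, 3806007 to 3914443), 2 (Dnmt3b, 153649450 to 153687730) and 10 (Dnmt3l, 78041947 to 78063622) of GRCm38, the latter 4 on the plus strand. Antisense genes, Dnmt3aos and Dnmt3bos, overlap Dnmt3a and Dnmt3b, and without strand in the counting their reads cannot be told apart.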

How the data were processed

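Single cells were sorted into 96-well plates and their polyadenylated RNA was sequenced by Smart-seq2, a full-length method without molecular identifiers. The deposited values are raw counts of reads that the authors aligned with HISAT2 2.1.0 to GRCm38 and assigned to Ensembl genes with featureCounts. The strand and multi-mapping settings are not given in the sources used here. Columns were matched to cells by title (0 unmatched), and 55141 of 55487 identifiers had a symbol. Total reads per well ran from 0 to 6162793 (median 611135).

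The members and gene lists were chosen with earlier results of these data known. Blood limits were 1000 CPM for summed haemoglobin genes and 20 CPM for the other markers. Level values are means over plates with at least 5 cells of a class, and plates are technical units. For tests, reads were summed per named embryo and class (at least 5 cells, contrasts over at least 2 embryos) and fitted with edgeR 4.0.16 (TMM, filterByExpr, quasi-likelihood test, Benjamini-Hochberg over all genes) in R 4.3.3, with embryo as the replicate block. The titles number 4 embryos, which are taken as animals, although the methods describe pooling for the chimaera sorts; were they pools, p-values would measure a smaller, partly technical spread. Classes of an embryo are paired by that number, and the deviations of its Hand1 and Pou5f1 sums correlated at 0.08, 0.13 and 0.13 over 9094 genes. Ttr and Sox2 contrasts lacked a second embryo in this fit.

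Named genes were the 5 members, list genes called (up to 5 a contrast) and the 5 most similar genes of each member; other genes were named after their values were seen. Shares have exact (Clopper-Pearson) 95% intervals, also where the count was 0. The expected share at 100000 reads was computed by the hypergeometric distribution (scipy 1.17.1). No doublet caller was run, since the sort kept singlets. The fit was tested on simulated data. Alternatives covered marker limits, read limits, class assignment, scaling, DESeq2 1.42.0, filters, blocks, cell minimum and each embryo or plate left out. A further gene list is not reported here.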

Additional observations from a re-analysis of the deposited data

Results flagged for a closer look

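Each of 6 flags, out of 35 groups of 4 to 10 plates tested, concerns Dnmt3l on a plate that stood far from the others of its kind. By chance about 1 in 20 groups would give such a flag if plate values were normally distributed. Dnmt3l outside Elf5 cells was mostly 0, where a few reads on 1 plate are enough for a flag. The number of flags can therefore not be set against that rate. In Pou5f1 cells at E7.5, lane plate 3 (6 cells) had 2.95 CPM, with the next of 9 plates at 1.29 CPM. In Hand1 cells at E7.5, lane plate 4 had 26.98 CPM, with the next of 8 plates at 11.6 CPM; a single cell carried all its reads. In E7.5 cells with no class marker, embryo 5 had 4.90 CPM among 6 plates, and in E7.5 cells with conflicting markers lane plate 6 had 4.18 CPM among 6 plates. At E8.5, cells with no class marker had 0.0598 CPM on plate 7 and 0 on the other 3 plates, and over all cells plate 8 had 0.66 CPM among 8 plates.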

How the results depend on the processing

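Of the recomputed member levels by class, 44 moved by more than 1 SD over plates (or, with 1 plate, past the counting interval), and of those by plate 1 did. Of the member changes in the embryo fits, 16 turned sign, 10 lost a call and 1 gained one. Counts of calls are given as percent of the genes tested, higher and lower; the reported fits called 0.267 and 0.0854% in Hand1 cells and 0.486 and 1.69% in Elf5 cells. Without the replicate block these were 0.470 and 0.401% in Hand1 cells and 1.41 and 3.23% in Elf5 cells, and of the members Uhrf1 in Hand1 cells changed sign, to -0.086, with no call gained or lost. DESeq2 called 1.71 and 2.63% in Hand1 cells and 2.74 and 6.38% in Elf5 cells, and added Dnmt3l in Hand1 cells (3.31). With all E7.5 plates, 0.860 and 0.555% were called in Hand1 cells and 0.259% higher in Elf5 cells, and Dnmt3a in Hand1 cells (-1.39) and Dnmt3l in Elf5 cells (8.30) lost the call. Without a low count filter 0.136% were called lower in Hand1 cells. With marker limits halved, 0.142% were called higher in Hand1 and 1.11% lower in Elf5 cells. With blood marker cells kept, 0.156% were called lower in Hand1 cells. By marker lists, 0.387% were called lower in Hand1 cells and 1.39 and 3.15% in Elf5 cells. With at least 10 cells, 0.769% were called higher in Elf5 cells.

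Dnmt3l in Elf5 cells lost its call at 9.25 with limits halved, 6.73 with limits doubled and 6.83 with blood marker cells kept. Signs of the uncalled maintenance genes turned in several fits. Dnmt1 in Hand1 cells was 0.31 with limits halved, 0.052 with limits doubled, 0.16 with all E7.5 plates and 0.22 with at least 10 cells. Uhrf1 in Hand1 cells was -0.12 with limits halved, -0.015 with blood marker cells kept and -0.0016 without a filter. In Elf5 cells Dnmt1 was -0.073 with limits halved, -0.11 with limits doubled, -0.063 by marker lists and -0.00029 with at least 10 cells, and Uhrf1 was -0.0096 with limits doubled.

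Leaving out each embryo in turn gave 0 to 0.315% of genes higher and 0 to 0.0886% lower in Hand1 cells, and 0.0859 to 0.389% higher and 0.698 to 0.975% lower in Elf5 cells. Dnmt3b in Hand1 cells ran from -2.67 to -2.40, Dnmt3a in Hand1 cells from -2.02 to -1.91, Dnmt3l in Elf5 cells from 7.00 to 10.4, Dnmt1 in Hand1 cells from -0.28 to 0.22, Dnmt1 in Elf5 cells from -0.25 to 0.50 and Uhrf1 in Hand1 cells from -0.058 to 0.081. Without embryo 4 or 5 the Elf5 contrast rests on 1 embryo, whose sums are assumed to vary like the others. Leaving out an embryo leaves fewer sums; for the other settings the cause was not tested. Of the 5 most similar genes, 3 or 4 stayed with a pseudocount of 10 CPM and 0 to 2 with Spearman's rho. Few Elf5, Ttr and Sox2 cells limit those classes, and Dnmt3l outside Elf5 cells rests on few reads.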
